A study of Mus musculus with 18 samples.

Results

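The collagen genes encode the chains of the collagens, the main structural proteins of the extracellular matrix. They were taken from a table of gene counts from mouse tumours as every protein-coding row whose symbol has the form Col, a number, a, and a number. The rule found 44 of the 21015 genes in the table. The rule uses symbols only.

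Collagen chains wind in groups of 3 into a triple helix that can hold a single kind of chain or several. Fibrillar collagens, above all types I and III, form the tension-bearing fibres of the stroma, type IV forms the sheet of basement membranes, and type VI forms beaded filaments around cells. In a solid tumour most fibrillar collagen is made by fibroblasts and pericytes rather than by carcinoma cells, and the matrix it forms sets stiffness and the passage of immune cells.

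The tumours were MC38-OVA, a mouse colon carcinoma line carrying the model antigen ovalbumin, implanted into mice. Hosts were wild type (WT) or carried the genotype ADRA2A-/- (KO), which removes the alpha2A-adrenergic receptor from host cells but not from the tumour cells. Each genotype has a Control group, labelled Untreated with PBS named in the treatment protocol, a Clonidine group and a Guanabenz group, both compounds being agonists of alpha2-adrenergic receptors. Treatment was daily by intraperitoneal injection, tumours were taken 7 days after treatment, and all animals have the age 10 weeks in the labels. There are 3 libraries in each of the 6 groups, 18 in all. The labels give no dose, no sex and no animal numbers. The p-values therefore reflect library-to-library spread alone, part of which may be technical. The KO-Guanabenz libraries have Untreated as their treatment entry while their titles say Guanabenz. The titles were followed, and every KO-Guanabenz value below carries that conflict.

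Total estimated counts ran from 54.7 to 491.1 in units of 1e6 per library, with a median of 92.4. The disrupted gene, Adra2a, was scarce everywhere: its highest value was 0.589 counts per 1e6 scaled counts (CPM) in WT hosts and 0.293 CPM in KO hosts, and its lowest 0.286 CPM in WT hosts and 0.0917 CPM in KO hosts. The labelled carcinoma was checked with 7 epithelial markers, whose summed level was 4.09 to 13.3 CPM. Of these, 2 averaged 1 CPM or more, Cdh1 and Epcam, while Krt8, Krt18, Krt19, Krt20 and Vil1 averaged 0.10 to 0.31 CPM. The sum was highest in WT-Guanabenz 3 and lowest in KO-Guanabenz 1, as was that of 8 keratinocyte markers. Whether it came from carcinoma cells or from skin was not tested. All 9 fibroblast markers averaged at least 1 CPM, with a summed level from 663 to 1268 CPM. All 8 pericyte and smooth muscle markers and all 8 endothelial markers also passed 1 CPM. The Y-linked transcripts Ddx3y, Eif2s3y and Uty were absent (under 1 CPM on average) from all 3 KO-Clonidine libraries and present in all 3 WT-Control libraries. They were present in 2 of 3 in every other group. Kdm5d, also Y-linked but not in that average, read 1.42, 2.22 and 1.99 CPM in KO-Clonidine.

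The family was led by a few stromal chains. Levels were compared between genes as CPM per kb of transcript, averaged over the 18 libraries. Col3a1, the sole chain of type III collagen, had the highest level at 1438 CPM per kb. Col1a2 and Col1a1, the chains of type I collagen, followed at 662 and 615 CPM per kb. These 3 genes held 68.0% of the summed collagen level. Col6a1, Col6a2 and Col6a3, which assemble into type VI collagen, stood at 296, 281 and 187 CPM per kb, and Col5a1, a chain of the type V collagen that nucleates type I fibrils, at 151. With these 4 the share came to 91.0%. Of the 44 genes, 7 were above 100 CPM per kb, 17 above 10 and 23 above 1, while 21 were at or below 1. The scarcest was Col9a2, a cartilage collagen, at 0.0101 CPM per kb, and 2 genes had no count in at least 1 library.

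**Figure D1:**
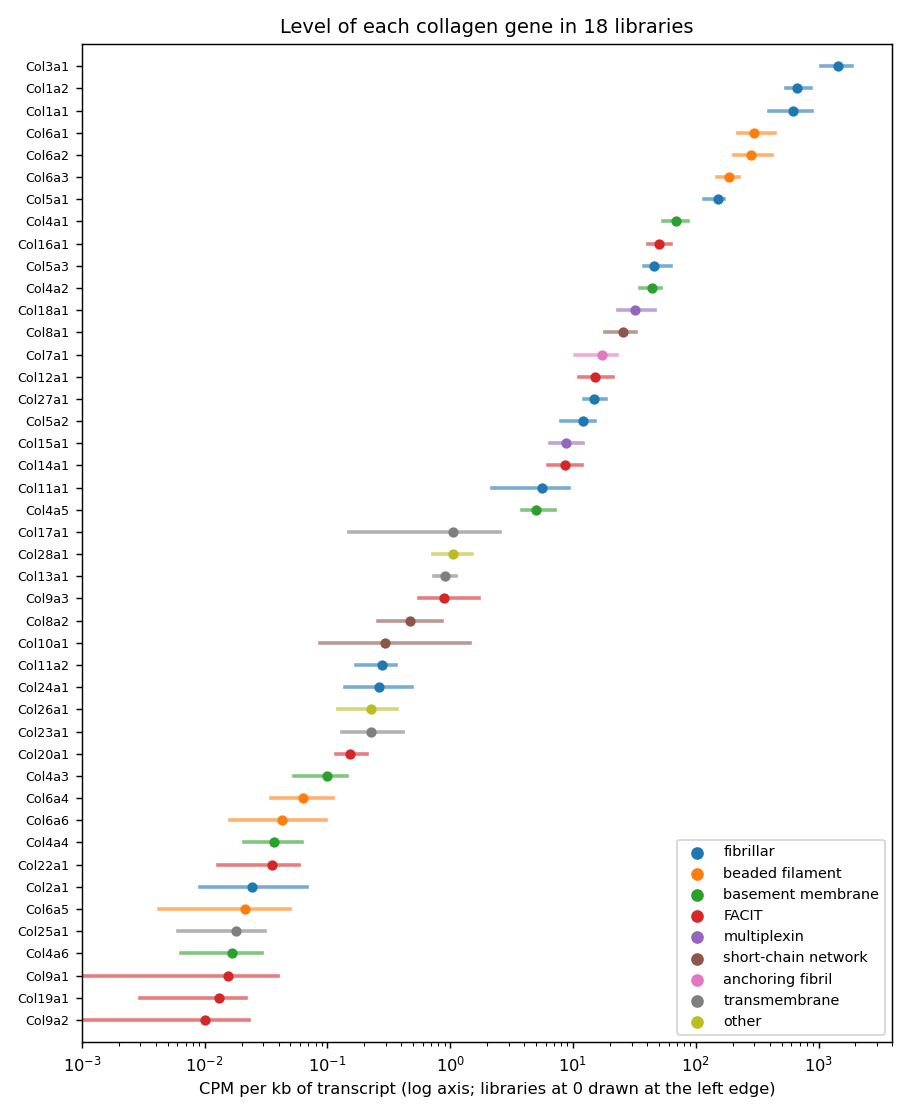
Level of each of the 44 collagen genes in CPM per kb of transcript on a log axis. Points are means over the 18 libraries, lines run from the lowest to the highest library, and colours mark the structural class. Col3a1, Col1a2 and Col1a1 lead at 1438, 662 and 615 CPM per kb, and 21 genes lie at or below 1.

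By class, the 11 fibrillar genes summed to 2945 CPM per kb, 73.8% of the family. The 6 beaded filament genes of type VI summed to 764 CPM per kb (19.1%), the 6 basement membrane genes of type IV to 118 (2.97%), and the 9 FACIT genes, fibril-associated collagens with interrupted triple helices, to 75.1 (1.88%). The 2 multiplexins, Col15a1 and Col18a1, which lie in basement membrane zones, summed to 40.8 CPM per kb (1.02%). The 3 short-chain network genes reached 26.4 CPM per kb, nearly all of it Col8a1. Col7a1, the anchoring fibril collagen that fastens epithelium to the dermis, stood at 17.1. The 4 transmembrane collagens summed to 2.22 CPM per kb and the 2 remaining genes to 1.28. Collagens together took between 1.80% and 2.89% of the scaled counts of a library, with a median of 2.25%.

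The lowest and highest libraries were often in KO hosts. The fibrillar sum ran from 2213 CPM per kb in KO-Control 3 to 3840 in KO-Clonidine 3. The beaded filament sum ran from 591 CPM per kb in KO-Control 2 to 1036 in KO-Clonidine 2. The basement membrane sum was lowest and highest within a single group, at 94.1 in KO-Control 2 and 142.7 in KO-Control 1. Collagens varied more between libraries of a group than most genes did: the median within-group SD was 0.239 log2 units over the 23 collagens above 1 CPM per kb, against 0.140 over all tested genes, and 20 of the 23 exceeded the latter. In bulk tumour RNA, fewer cells of a type and less RNA per cell cannot be told apart, which applies to every level given here.

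Promoter sequence was read in the 250 bases before the start sites that RefSeq (GRCm38.p6) gives. Windows were printed only where these bases hold no annotated exon. The windows printed are those of Col3a1 at chr1:45311288-45311537 on the plus strand, Col8a1 at chr16:57754738-57754987 on the minus strand, Col6a5 at chr9:105960644-105960893 on the minus strand and Col15a1 at chr4:47207762-47208011 on the plus strand. They are shown because Col3a1 and Col8a1 had the smallest p for KO-Guanabenz against KO-Control, Col6a5 for KO against WT hosts averaged over treatments, and Col15a1 was called by DESeq2 and limma-voom between the clonidine groups. Each is printed in the direction of its gene, 5′ to 3′ and ending at the base before the start. Capitals mark matches to 3 motifs on either strand. The TATA motif was searched as TATAAA and its reverse complement. The CCAAT motif was searched as CCAAT and its reverse complement. The GC-box core was searched as GGGCGG and as CCGCCC on the other strand.
Col3a1: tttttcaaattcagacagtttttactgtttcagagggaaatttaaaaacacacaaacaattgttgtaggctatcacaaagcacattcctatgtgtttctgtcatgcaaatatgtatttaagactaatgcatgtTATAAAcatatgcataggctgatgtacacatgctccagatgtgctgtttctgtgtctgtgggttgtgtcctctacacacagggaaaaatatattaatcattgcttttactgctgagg
Col8a1: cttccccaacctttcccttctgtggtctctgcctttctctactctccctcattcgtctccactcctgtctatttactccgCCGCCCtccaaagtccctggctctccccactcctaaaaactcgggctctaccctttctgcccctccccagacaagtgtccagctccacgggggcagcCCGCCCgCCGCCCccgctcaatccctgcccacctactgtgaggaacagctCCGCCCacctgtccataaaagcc
Col6a5: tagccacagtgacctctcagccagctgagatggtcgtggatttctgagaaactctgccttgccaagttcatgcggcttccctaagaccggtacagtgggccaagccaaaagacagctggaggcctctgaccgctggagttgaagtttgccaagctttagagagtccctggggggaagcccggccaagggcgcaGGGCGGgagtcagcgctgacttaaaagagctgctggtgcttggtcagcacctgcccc
Col15a1: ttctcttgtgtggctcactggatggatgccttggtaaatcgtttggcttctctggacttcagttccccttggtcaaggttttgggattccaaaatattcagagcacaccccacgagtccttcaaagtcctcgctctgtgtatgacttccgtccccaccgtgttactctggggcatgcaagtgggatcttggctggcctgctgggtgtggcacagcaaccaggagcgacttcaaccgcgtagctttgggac
The Col3a1 window held a match to TATAAA that began 117 bases before the start and no match to the other motifs. The Col8a1 window held 4 GC-box matches and that of Col6a5 held 1, while the letters searched were not in the Col15a1 window. RefSeq windows were found for 35 of the 44 members, with 38 windows in all. Of these, 20 were free of annotated exons, and the motifs were counted in all 38. A GC-box match occurred in 22 of these 38 windows (57.9%) against 32.7% of the 32851 windows of all genes. TATAAA occurred in 5 (13.2%) against 12.4%, and CCAAT in 13 (34.2%) against 33.8%. A match is a description of letters and was not tied to any measured factor.

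Chains of the same molecule kept unequal degrees of balance across libraries. Col6a1 and Col6a2, neighbours on chromosome 10, had a ratio per kb of 1.06 at the median, from 0.993 to 1.13 over the 18 libraries. The SD of the log2 ratio was 0.046, against 0.288 and 0.305 for the log2 levels of the chains themselves. Col6a1 read 1425, 909 and 1162 CPM in WT-Control 1 to 3 and Col6a2 read 1506, 881 and 1140 CPM. In KO-Clonidine the values were 1279, 1825 and 1432 CPM for Col6a1 and 1301, 1806 and 1405 CPM for Col6a2. In those 2 groups the chains had the same highest and the same lowest library. In WT-Clonidine Col6a1 read 1220, 1377 and 952 CPM and Col6a2 read 1276, 1407 and 949 CPM. In WT-Guanabenz the values were 1314, 1088 and 919 CPM for Col6a1 and 1305, 1110 and 913 CPM for Col6a2. The order of the libraries was again the same for both. In KO-Control they were 1450, 963 and 915 CPM for Col6a1 and 1413, 891 and 921 CPM for Col6a2, and in KO-Guanabenz 1221, 1019 and 1348 CPM and 1207, 966 and 1337 CPM. KO-Control was the exception, where replicates 2 and 3 changed places. Col6a3, the third chain of the same protein, lies on chromosome 1. It had their order of libraries in WT-Clonidine and WT-Guanabenz but not in the other groups. It read 1802, 1762 and 1706 CPM in WT-Control and 2008, 1632 and 1844 CPM in KO-Clonidine, where replicate 2, the highest for Col6a1, was the lowest. Elsewhere it read 1834, 2155 and 1809 CPM in WT-Clonidine, 1865, 1644 and 1530 CPM in WT-Guanabenz, 1639, 1422 and 1818 CPM in KO-Control and 1932, 1922 and 1877 CPM in KO-Guanabenz. Its ratio to Col6a1 ran from 1.17 to 2.61 (Col6a1 over Col6a3, median 1.55), with an SD of 0.289 log2 units.

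Col18a1, the source of endostatin, is a further neighbour on chromosome 10. It was highest in KO-Control 1 and KO-Clonidine 2, at 229 CPM in each, which are also the highest libraries of their groups for Col6a1. In WT-Clonidine, KO-Clonidine and KO-Guanabenz the order of the 3 libraries was the same for both genes. In WT-Control, WT-Guanabenz and KO-Control it was not. In WT-Control Col18a1 was highest in replicate 3 (189 CPM against 135 and 125) and Col6a1 in replicate 1. In WT-Guanabenz replicate 1 was the highest for Col6a1 and the lowest for Col18a1. In KO-Control replicates 2 and 3 changed places.

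Col4a1 and Col4a2, the common chains of basement membrane type IV collagen, are divergent genes on chromosome 8 that overlap at their 5′ ends. Their ratio per kb was 1.58 at the median, from 1.45 to 1.68, and its SD was 0.055 log2 units against 0.180 and 0.169 for the chains. Col4a1 read 460, 416 and 436 CPM in WT-Control, 488, 565 and 419 in WT-Clonidine, 415, 418 and 406 in WT-Guanabenz, 568, 355 and 406 in KO-Control, 454, 488 and 536 in KO-Clonidine, and 475, 454 and 505 in KO-Guanabenz. WT-Guanabenz was the narrowest group and KO-Control the widest. Col4a2 read 286, 259 and 280 CPM in WT-Control, 290, 328 and 266 in WT-Clonidine, 259, 256 and 235 in WT-Guanabenz, 337, 226 and 243 in KO-Control, 276, 296 and 323 in KO-Clonidine, and 319, 288 and 313 in KO-Guanabenz. Its lowest and highest libraries were both in KO-Control, as for Col4a1. The sources used here do not give the strand setting of the counts, so reads in the overlap cannot be assigned to a chain. Col1a1 and Col1a2, on chromosomes 11 and 6, had a median ratio per kb of 0.914, from 0.723 in KO-Control 3 to 1.16 in WT-Control 1. The SD of their log2 ratio was 0.136, against 0.279 for Col1a1 and 0.168 for Col1a2.

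**Figure D2:**
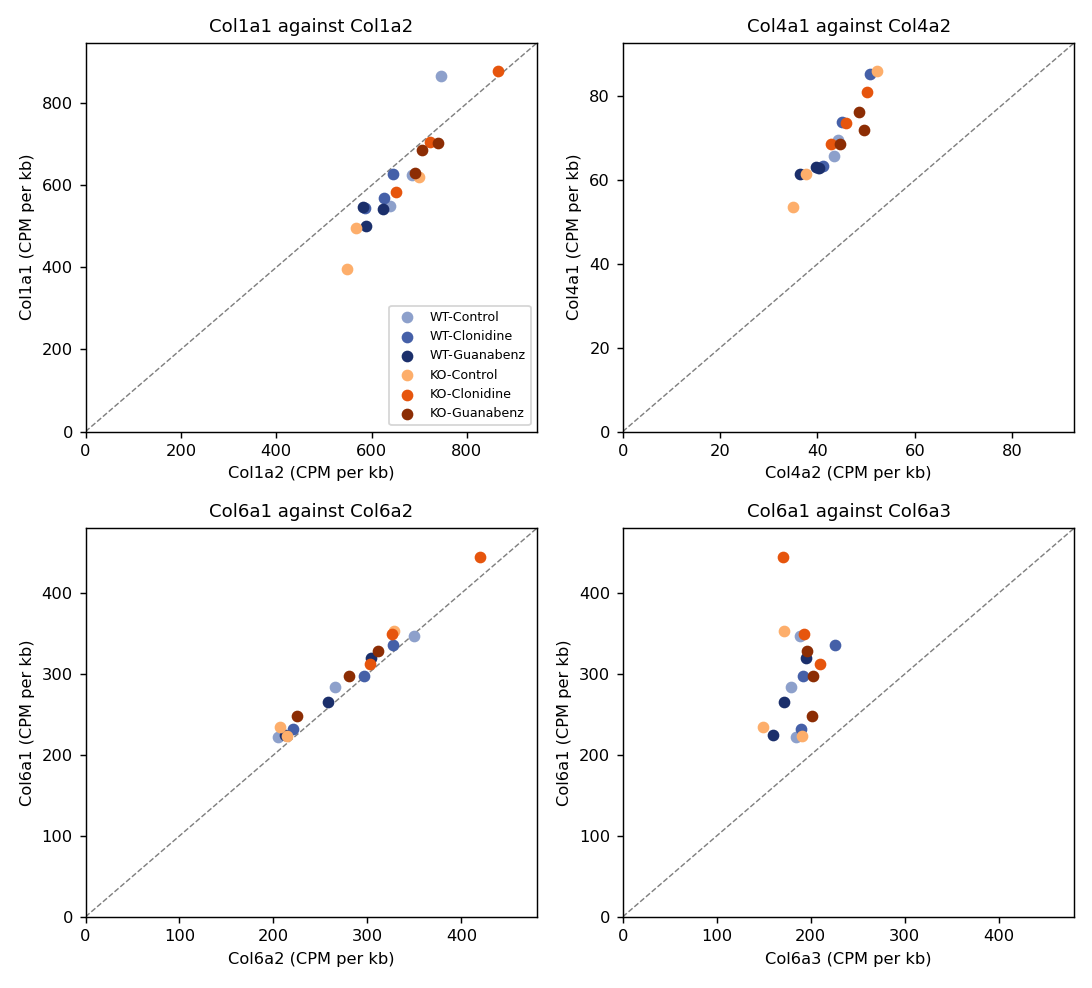
Levels of paired collagen chains in each of the 18 libraries, in CPM per kb, coloured by group, with the dashed line marking equal levels. Col6a1 stays within 0.993 to 1.13 times Col6a2, whereas its ratio to Col6a3 runs from 1.17 to 2.61.

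Each comparison below was tested with edgeR's quasi-likelihood F test over 16125 genes, with Benjamini-Hochberg adjustment and a call at an adjusted p under 0.05. Of the 44 collagens, 42 passed the low-count filter and were tested; Col9a2 and Col19a1 were not. No collagen was called in any of 12 comparisons by this test. The counts at an unadjusted p under 0.05 and the results of other tools are given with each comparison. The comparisons of clonidine and guanabenz with the control of a genotype share that control's libraries.

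Between WT-Clonidine and WT-Control the median log2 difference over the 42 collagens was 0.02, with 23 positive and 19 negative values and a range from -1.22 to 0.62. The sign of this median turned on single libraries, being -0.03 without WT-Clonidine 2, -0.025 without WT-Control 2 and -0.004 without WT-Control 3. Of the 42, 2 had an unadjusted p under 0.05 (4.76%) against 12.9% of all genes, and 0 were called against 0.0% of all genes. DESeq2 and limma-voom called 0 collagens as well, against 2.19% and 4.79% of all genes. Col8a2, a chain of the type VIII collagen of Descemet's membrane and vessels, read 1.78, 1.77 and 1.18 CPM in WT-Clonidine and 2.50, 2.18 and 3.12 CPM in WT-Control. The groups did not overlap, and the log2 difference was -0.72 (SE 0.31, adjusted p = 0.337). Col27a1, a fibrillar collagen of cartilage and other tissues, differed by 0.19 (SE 0.09, adjusted p = 0.382), and by 0.10 without WT-Clonidine 3. Col14a1, a FACIT collagen on the surface of fibrils, differed by -0.32 (SE 0.17, adjusted p = 0.448), and by -0.17 without WT-Control 2. The 2 groups were separate for 1 collagen in the higher direction (Col6a3, where 11.1% of all genes were) and for 3 in the lower (Col8a2, Col9a1 and Col16a1, against 9.81%). The 11 fibrillar genes had 5 positive and 6 negative differences. Col3a1 read 7689, 7020 and 8020 CPM in WT-Clonidine and 8257, 8685 and 7528 CPM in WT-Control, so the groups overlapped. In WT-Clonidine Col1a1 read 3375, 3230 and 3728 CPM and Col1a2 read 3351, 3138 and 3448 CPM.

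Guanabenz in WT hosts gave a median of -0.08, with 16 positive and 26 negative differences. Again 0 of 42 were called, against 0.0% of all genes, and 2 of 42 had an unadjusted p under 0.05 against 11.4%. Neither DESeq2 nor limma-voom called a collagen, against 1.07% and 0.0372% of all genes. Both chains of type I collagen lay below the control range. Col1a1 read 3211, 2976 and 3247 CPM in WT-Guanabenz and 5135, 3712 and 3261 CPM in WT-Control, a log2 difference of -0.36 (SE 0.17, adjusted p = 0.433). The groups just missed each other, and WT-Control 1 was far above the other 5 libraries. Without that library the difference was -0.15. Col1a2 read 3336, 3149 and 3111 CPM against 3991, 3661 and 3417 CPM, a difference of -0.21 (SE 0.10, adjusted p = 0.453). Col12a1, a FACIT collagen that bridges fibrils, went the other way at 0.43 (SE 0.19, adjusted p = 0.405), with 246, 173 and 203 CPM in WT-Guanabenz and 173, 137 and 152 CPM in WT-Control. All 6 beaded filament genes had negative differences, with a median of -0.09. The groups were separate in the higher direction for 0 collagens (6.41% of all genes) and in the lower for 4, Col1a1, Col1a2, Col4a3 and Col6a6 (8.19%).

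Between the compounds, WT-Clonidine and WT-Guanabenz differed by a median of 0.03 over the 42 collagens, which was -0.012 without WT-Guanabenz 2 and 0.083 without WT-Guanabenz 1. At doses the labels do not give, 0 were called (0.0% of all genes) and 2 had an unadjusted p under 0.05, against 5.05% of all genes, and DESeq2 and limma-voom called 0 (0.0248% and 0.0062%). Clonidine is an imidazoline and guanabenz a guanidine derivative. Col14a1 read 39.6, 38.1 and 35.7 CPM in WT-Clonidine and 63.8, 66.7 and 42.3 CPM in WT-Guanabenz. No value was shared, and the difference was -0.60 (SE 0.17, adjusted p = 0.957, 95% interval -0.97 to -0.24). Col15a1, a multiplexin of vessel walls, read 60.9, 62.1 and 50.5 CPM against 33.8, 45.3 and 50.6 CPM, a difference of 0.42 (SE 0.17, adjusted p = 0.957). The 2 groups overlapped in their closest libraries. Without WT-Guanabenz 1, the lowest library, the Col15a1 difference was 0.27. The endothelial markers had a median of 0.33 in this comparison, with the lowest sum of all libraries, 165 CPM, in WT-Guanabenz 1. Larger medians were those of T cell (0.73), skeletal muscle (0.45) and adipocyte (0.44) markers. The part of any of these in the Col15a1 value was not tested. Col6a3 differed by 0.20 (SE 0.10, adjusted p = 0.957), and by 0.12 without WT-Clonidine 2. For 21 of the 23 collagens above 1 CPM per kb, the 95% interval of the difference lay within 1 log2 unit on either side of 0. The median half-width of these intervals was 0.36, so differences smaller than that were not resolved for a typical member. The groups were separate for 5 collagens in the higher direction (Col4a1, Col4a2, Col6a5, Col6a6 and Col9a3, against 5.33%) and for 2 in the lower (Col14a1 and Col26a1, against 3.74%).

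In KO hosts 21 of the 23 collagens above 1 CPM per kb had positive differences from KO-Control under clonidine and 19 under guanabenz. These 2 comparisons share the KO-Control libraries, and edgeR called none. Of the same 23 collagens, 20 were negative in KO-Control against WT-Control. Under clonidine, 30 of 42 differences were positive and the median was 0.20, beside 0.0011 over all genes. All 11 fibrillar genes had positive differences, with a median of 0.26, and 5 of 6 beaded filament genes did, with a median of 0.24. The 2 more abundant collagens with negative differences were Col15a1 and Col17a1. No collagen was called, against 0.0186% of all genes, and DESeq2 and limma-voom called 0 (0.18% and 0.0186%). At an unadjusted p under 0.05 there were 8 of 42 (19.0%) against 5.52% of all genes.

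Type I collagen had the smallest p among the abundant genes. Col1a1 read 4182, 3463 and 5203 CPM in KO-Clonidine and 3672, 2943 and 2346 CPM in KO-Control. The groups overlapped, with KO-Clonidine 2 below KO-Control 1, and the log2 difference was 0.52 (SE 0.17, adjusted p = 0.799). Col1a2 read 3868, 3487 and 4628 CPM against 3745, 3033 and 2928 CPM, a difference of 0.30 (SE 0.10, adjusted p = 0.813). Without KO-Clonidine 3, the library highest for both chains, the Col1a2 difference was 0.18. With the KO-Guanabenz libraries read as KO-Control, as their treatment entry has it, the differences were 0.30 for Col1a1 and 0.18 for Col1a2, and the family median was 0.12. Col3a1 read 8243, 6289 and 10158 CPM in KO-Clonidine and 8207, 6545 and 5810 CPM in KO-Control, and the ranges of the groups overlapped. The fibroblast marker sum moved with these values in KO-Clonidine: it was 838, 663 and 1176 CPM in replicates 1 to 3, the same order as Col3a1. In KO-Control it was 863, 922 and 776 CPM. The median log2 difference of the 9 fibroblast markers was 0.12, and their part in the collagen values was not tested. Y-linked transcripts were under 1 CPM on average in KO-Clonidine. With a Y-linked term in the fit no collagen was called in this comparison. None was called without the term either, so the count cannot show the part of this imbalance, which was not tested.

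Col2a1, the collagen of cartilage, had the smallest p under clonidine in KO hosts but was very scarce. It read 0.167, 0.340 and 0.297 CPM in KO-Clonidine and 0.0456, 0.0641 and 0.0906 CPM in KO-Control, with as few as 3 counts in a library. The other 4 groups held 0.0505 to 0.157 CPM, so each KO-Clonidine library was above all 15 others. The log2 difference was 1.99 (SE 0.45, adjusted p = 0.356), and DESeq2 gave it no adjusted p. The cartilage markers Acan and Matn1 averaged under 0.1 CPM, and 1 of 6 chondrocyte markers, Sox9, averaged 1 CPM or more. Groups were separate for 2 collagens in the higher direction (Col2a1 and Col5a1, against 4.4% of all genes) and for 1 in the lower (Col4a4, against 4.43%).

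**Figure D3:**
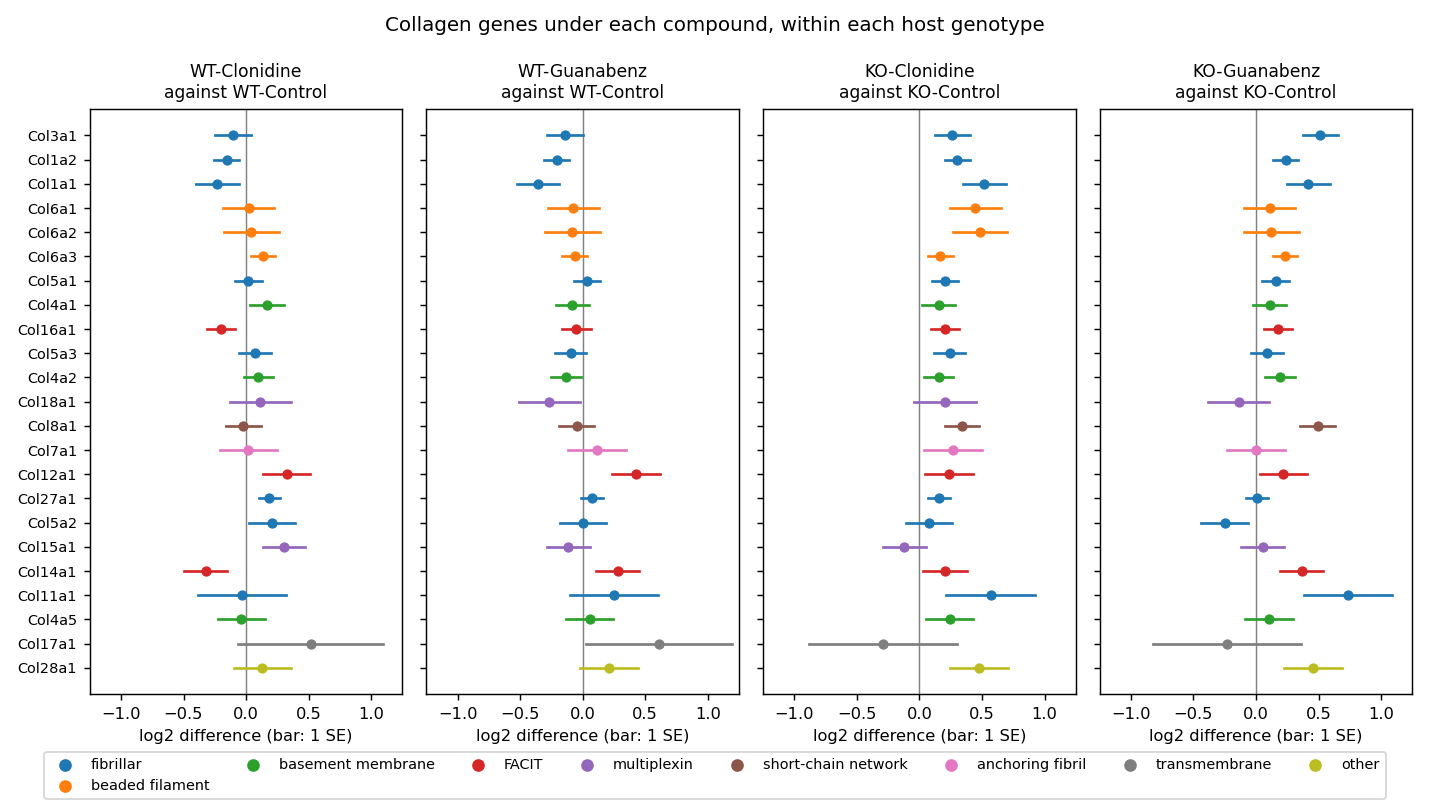
Log2 difference from the control of the same host genotype for the 23 collagens above 1 CPM per kb, ordered by level and coloured by class; bars are 1 SE. In KO-Clonidine 21 of 23 points and in KO-Guanabenz 19 of 23 points lie above 0, against 15 in WT-Clonidine and 10 in WT-Guanabenz. No gene passed the adjusted threshold in any panel. Of the 23 collagens, 20 were negative in KO-Control against WT-Control, which is not drawn.

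KO-Guanabenz against KO-Control gave 27 positive and 15 negative differences with a median of 0.11. Leaving out 1 library moved this median to 0.02 without KO-Control 2, 0.035 without KO-Guanabenz 3, 0.055 without KO-Control 3 and 0.22 without KO-Control 1. Of the 11 fibrillar genes 9 were positive, with a median of 0.24. With edgeR 0 collagens were called, against 0.0124% of all genes, and 5 of 42 had an unadjusted p under 0.05 (11.9%), below the 15.1% of all genes. DESeq2 and limma-voom each called 2 of 42 (Col3a1 and Col8a1), where DESeq2 called 2.75% of all genes and limma-voom 2.13%.

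Col3a1 read 10479, 10062 and 8821 CPM in KO-Guanabenz and 8207, 6545 and 5810 CPM in KO-Control. The groups did not overlap, and KO-Guanabenz 1 was the highest of all 18 libraries. The log2 difference was 0.51 (SE 0.14, adjusted p = 0.138 with edgeR). Col8a1, the network-forming chain of type VIII collagen made by vessel wall and mesenchymal cells, read 157.2, 156.6 and 153.5 CPM against 128.8, 110.8 and 92.5 CPM. The 3 KO-Guanabenz values were nearly equal and above every KO-Control library. The difference was 0.49 (SE 0.14, adjusted p = 0.140). Col1a1 read 4075, 3739 and 4168 CPM against 3672, 2943 and 2346 CPM, a difference of 0.42 (SE 0.17, adjusted p = 0.257). Without KO-Control 3 it was 0.27. The groups were separate for 6 collagens in the higher direction, Col1a1, Col3a1, Col6a3, Col8a1, Col14a1 and Col24a1, where 9.09% of all genes were, and for 0 in the lower, where 10.5% were. The fibroblast marker sum was 1086, 1133 and 863 CPM in KO-Guanabenz against 863, 922 and 776 CPM in KO-Control, and the median difference of those 9 markers was 0.35. Skeletal muscle markers had a median of -1.0 in the same comparison. The part of either in the collagen values was not tested.

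**Figure D4:**
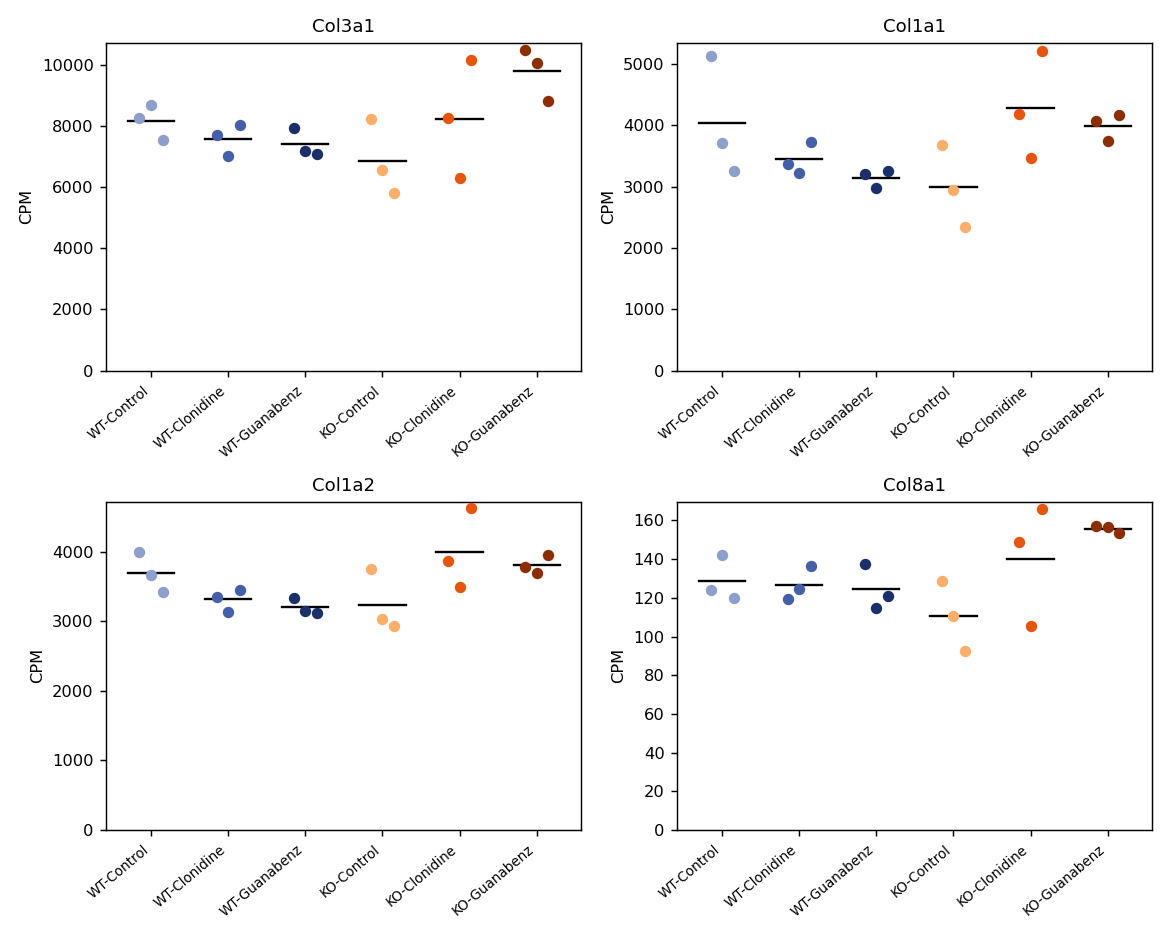
CPM of Col3a1, Col1a1, Col1a2 and Col8a1 in each library (points) with the mean of the 3 libraries of a group (bar). The 3 KO-Guanabenz libraries, whose treatment entry reads Untreated, lie at 8821 to 10479 CPM for Col3a1, above every KO-Control library.

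Whether a compound's effect depended on host genotype was tested as the difference of the 2 effects, WT minus KO. For clonidine the median over the 42 collagens was -0.22, with 16 positive and 26 negative values. It was -0.12 without KO-Clonidine 2, -0.13 without KO-Control 3 and -0.094 with the KO-Guanabenz libraries read as KO-Control. Fibrillar genes were negative in 9 of 11 cases, with a median of -0.37. No collagen was called (0.0% of all genes), 7 of 42 had an unadjusted p under 0.05 (16.7%) against 8.94% of all genes, and DESeq2 and limma-voom called 0 (0.205% and 0.0124% of all genes). Col8a2 had the smallest p, at -1.49 (SE 0.44, adjusted p = 0.417). In KO hosts it read 2.40, 1.93 and 3.74 CPM under clonidine and 1.98, 1.12 and 1.67 CPM in the control, opposite to the order in WT hosts. Col1a2 differed by -0.46 (SE 0.14, adjusted p = 0.428) and Col1a1 by -0.75 (SE 0.24, adjusted p = 0.429).

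For guanabenz the median was -0.18, with 15 positive and 27 negative values. It was -0.099 without KO-Guanabenz 3, -0.12 without KO-Control 3 and -0.31 without KO-Control 1. All 6 beaded filament genes (median -0.32) and 8 of 11 fibrillar genes (median -0.44) were negative. No collagen was called by edgeR, against 0.0062% of all genes, nor by DESeq2 (0.0806%) or limma-voom (0.0124%), and 6 of 42 had an unadjusted p under 0.05 (14.3%) against 5.71%. Col1a1 differed by -0.78 (SE 0.24, adjusted p = 0.836), Col3a1 by -0.66 (SE 0.20, adjusted p = 0.836) and Col1a2 by -0.44 (SE 0.14, adjusted p = 0.866). The fibroblast markers had a median of -0.44 in this comparison and -0.20 in that for clonidine, and their part was not tested. Both of these comparisons use the same WT-Control and KO-Control libraries, so they are not independent of each other.

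In the absence of either compound, KO-Control against WT-Control gave a median of -0.12, with 11 positive and 31 negative differences. It was -0.058 without KO-Control 3, -0.20 without KO-Control 1 and -0.067 with the KO-Guanabenz libraries read as KO-Control. All 11 fibrillar genes (median -0.19) and all 6 beaded filament genes (median -0.22) were negative. The test called 0 collagens, against 0.0062% of all genes, and 4 of 42 had an unadjusted p under 0.05 (9.52%) against 3.68%. DESeq2 and limma-voom called 0 (0.105% and 0.0062%). Col1a1 differed by -0.43 (SE 0.17, adjusted p = 1), and by -0.22 without WT-Control 1, by -0.29 without KO-Control 3 and by -0.21 with the KO-Guanabenz libraries read as KO-Control. Col6a5 differed by -1.18 (SE 0.46, adjusted p = 1). Col4a3, a chain of the type IV collagen of kidney and lung basement membranes, differed by -0.60 (SE 0.26, adjusted p = 1), and by -0.38 either without KO-Control 1 or with the KO-Guanabenz libraries read as KO-Control. Groups were separate for 0 collagens in the higher direction (4.56%) and for Col4a3 and Col8a2 in the lower (3.77%). The fibroblast markers had a median of -0.19.

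Under clonidine, KO against WT gave a median of 0.11, with 26 positive and 16 negative differences. The median was 0.061 without KO-Clonidine 2 and 0.074 with limma-voom. Of all genes 2.5% were called, the highest share of the 2-group comparisons, and 0 of 42 collagens were among them by edgeR. At an unadjusted p under 0.05 there were 9 (21.4%) against 19.6%. DESeq2 called 1 of 42, Col15a1, against 7.12% of all genes, with no adjusted p for the scarce Col2a1 and Col6a5. With limma-voom 5 of 42 were called, Col2a1, Col6a5, Col15a1, Col16a1 and Col24a1, against 7.85% of all genes. Col15a1 read 41.0, 37.0 and 39.6 CPM in KO-Clonidine and 60.9, 62.1 and 50.5 CPM in WT-Clonidine. The groups were separate, and the difference was -0.56 (SE 0.17, adjusted p = 0.084). Endothelial markers, of cells that Col15a1 surrounds, had a median of -0.28 here. Medians were -0.98 for T cell, -0.65 for skeletal muscle, -0.58 for keratinocyte and -0.37 for adipocyte markers, and the part of any of these in the collagen values was not tested. Col2a1 differed by 1.42 (SE 0.40, adjusted p = 0.064). Col6a5 read 0.10, 0.190 and 0.0991 CPM against 0.369, 0.300 and 0.457 CPM, a difference of -1.49 (SE 0.43, adjusted p = 0.075). Separate groups were found for 6 collagens in the higher direction (Col1a2, Col2a1, Col5a1, Col8a2, Col10a1 and Col14a1, against 14.2%) and for 5 in the lower (Col6a5, Col6a6, Col15a1, Col17a1 and Col23a1, against 12.8%).

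Under guanabenz, KO against WT gave a median of 0.06, which was -0.017 without WT-Guanabenz 3 and 0.12 without WT-Guanabenz 1. By edgeR, DESeq2 and limma-voom 0 collagens were called, against 0.0186%, 0.0868% and 0.0124% of all genes, and 4 of 42 had an unadjusted p under 0.05 (9.52%) against 8.16%. Groups were separate for 11 collagens in the higher direction, among them Col3a1, Col1a1, Col1a2, Col4a1, Col4a2, Col6a3 and Col8a1, where 6.26% of all genes were. They were separate for 3 in the lower (Col6a5, Col7a1 and Col27a1, against 6.06%). Col3a1 read 10479, 10062 and 8821 CPM in KO-Guanabenz and 7938, 7161 and 7085 CPM in WT-Guanabenz, a difference of 0.40 (SE 0.14, adjusted p = 0.554). Every KO library was above every WT library. Col1a2 differed by 0.25 (SE 0.10, adjusted p = 0.570) and Col4a2 by 0.29 (SE 0.12, adjusted p = 0.572). The fibroblast markers had a median of 0.25, adipocyte markers -0.66, skeletal muscle markers -0.64 and keratinocyte markers -0.56, and the part of any of these was not tested.

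Averaged over the 3 treatments, KO and WT hosts differed by a median of 0.04 across the collagens. This median was -0.003 without KO-Control 1, also -0.003 with limma-voom, 0.006 without KO-Clonidine 3 and 0.077 without KO-Clonidine 2. The nearest to a call in any comparison was Col6a5, a scarce chain that can replace Col6a3 in type VI collagen and is found in skin. In the 9 WT libraries Col6a5 ran from 0.142 to 0.457 CPM with a median of 0.250, and in the 9 KO libraries from 0.0393 to 0.190 CPM with a median of 0.10. The ranges overlapped slightly, with 5 of 9 KO libraries below the lowest WT library, and counts went down to 3 in a library. The log2 difference was -1.17 (SE 0.26, adjusted p = 0.053 with edgeR). Of 26 alternatives, 22 did not call Col6a5, counting DESeq2. Those that called it included limma-voom (2.24% of all genes called), a Y-linked term (0.428%) and the fit without WT-Control 1 (0.419%). DESeq2, which called 0 collagens and 3.73% of all genes, gave it no adjusted p. Over the alternatives its adjusted p ran from 0.031 to 0.116. Its neighbour on chromosome 9, Col6a6, a chain of the same kind, ran from 0.202 to 0.617 CPM in WT and from 0.103 to 0.417 CPM in KO libraries. The 2 ranges overlapped, with 6 of 9 KO libraries below the lowest WT library. The difference was -0.70 (SE 0.27, adjusted p = 0.203). These chains are paralogs, so reads could be divided between them. Col27a1 differed by -0.15 (SE 0.05, adjusted p = 0.159). In all 0 of 42 were called against 0.416% of all genes, and 7 had an unadjusted p under 0.05 (16.7%) against 17.4%. In the same comparison the keratinocyte markers had a median of -0.28 and the skeletal muscle markers -0.46, and their part in the Col6a5 value was not tested.

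Over the 6 groups at once, 0 of 42 collagens were called by edgeR against 2.02% of all genes, and 8 had an unadjusted p under 0.05 (19.0%) against 19.2%. DESeq2 called 3 of 42, Col1a1, Col1a2 and Col14a1, against 11.8% of all genes. With limma-voom 3 of 42 were called, Col6a5, Col9a1 and Col14a1, against 13.5%. Among the 23 collagens above 1 CPM per kb, the highest group mean over the lowest ranged from 1.15 for Col5a1 to 1.92 for Col17a1, with a median of 1.38. KO-Clonidine held the highest mean for 11 of the 23 and KO-Control the lowest for 10.

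Some members were set apart by a few libraries rather than by a group. Col17a1, a transmembrane collagen that anchors basal keratinocytes, read 5.44, 5.11 and 14.1 CPM in WT-Guanabenz, 5.94, 5.45 and 1.46 CPM in KO-Clonidine and 0.825, 6.69 and 5.75 CPM in KO-Guanabenz. It read 4.74, 6.61 and 5.00 CPM in WT-Control, 7.54, 9.42 and 6.34 CPM in WT-Clonidine and 5.31, 3.19 and 7.04 CPM in KO-Control. The libraries that stand out are WT-Guanabenz 3 on the high side and KO-Guanabenz 1 and KO-Clonidine 3 on the low side. The summed level of 8 keratinocyte markers was highest in the first, at 277.6 CPM, and lowest in the others, at 35.0 and 44.2 CPM. Trp63 was the list member that did not have its lowest values there, at 15.7 CPM in KO-Guanabenz 1 and 11.0 CPM in KO-Clonidine 3. The part of skin in the Col17a1 values was not tested. Col7a1, the other collagen of the skin's basement membrane zone, did not share this order: it read 165, 177 and 180 CPM in WT-Guanabenz, 153, 195 and 157 CPM in KO-Clonidine and 139, 128 and 152 CPM in KO-Guanabenz. It read 210, 112 and 160 CPM in WT-Control, 128, 154 and 207 CPM in WT-Clonidine and 191, 133 and 94.8 CPM in KO-Control, the group of its lowest library. Col10a1, the collagen of hypertrophic cartilage, read 4.50 CPM in KO-Control 2 and at most 1.61 CPM in every other library. Col11a1, a fibrillar collagen that regulates fibril diameter, read 54.0, 24.7 and 16.7 CPM in KO-Control and 50.4, 30.8 and 39.6 CPM in WT-Control, the former being the more spread.

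**Figure D5:**
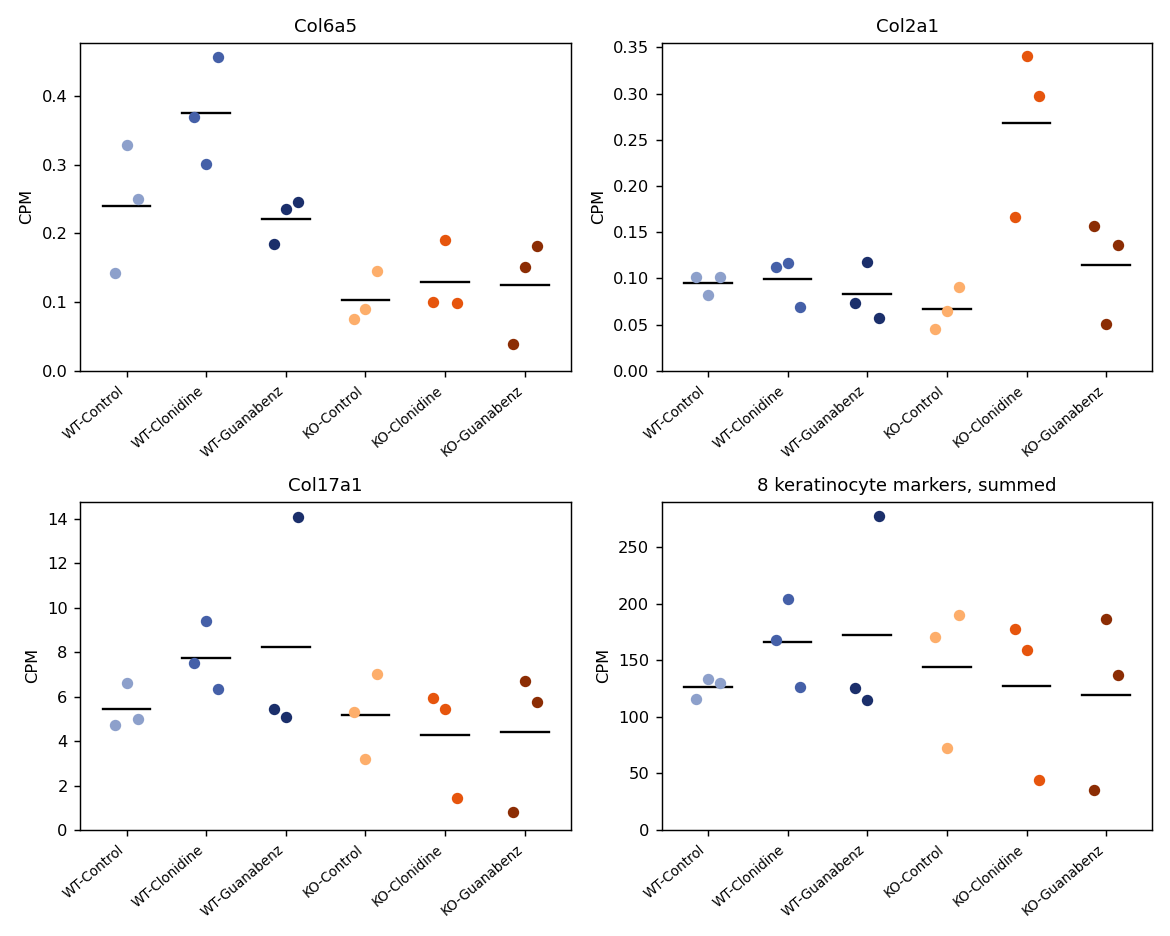
CPM of Col6a5, Col2a1 and Col17a1 and the summed CPM of 8 keratinocyte markers in each library (points), with group means (bars). Col6a5 runs from 0.142 to 0.457 CPM in WT and from 0.0393 to 0.190 CPM in KO hosts, and the lowest and highest libraries for Col17a1 are those for the keratinocyte markers.

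Among the remaining class leaders, Col16a1, a FACIT collagen of fibroblasts and smooth muscle, read 254, 284 and 251 CPM in WT-Control and 241, 233 and 213 CPM in WT-Clonidine, with no overlap. The gene read 263, 279 and 220 CPM in WT-Guanabenz, 280, 229 and 245 CPM in KO-Control, 310, 233 and 326 CPM in KO-Clonidine, and 296, 285 and 271 CPM in KO-Guanabenz. KO-Clonidine was the group with the highest mean. Col28a1, a collagen of peripheral nerve, read 4.06, 4.28 and 3.67 CPM in WT-Control, 4.46, 4.43 and 4.22 in WT-Clonidine, 3.09, 4.29 and 6.40 in WT-Guanabenz, 4.79, 3.14 and 3.12 in KO-Control, 5.59, 4.06 and 5.66 in KO-Clonidine, and 4.52, 6.16 and 4.45 in KO-Guanabenz. Its lowest and highest libraries were both in WT-Guanabenz. Col18a1 read 135, 125 and 189 CPM in WT-Control, 173, 194 and 119 in WT-Clonidine, 114, 137 and 123 in WT-Guanabenz, 229, 128 and 143 in KO-Control, 143, 229 and 203 in KO-Clonidine, and 143, 116 and 194 in KO-Guanabenz. Every group overlapped every other except WT-Guanabenz and KO-Clonidine. Col8a1, whose values in KO-Guanabenz and KO-Control are given above, read 124, 142 and 120 CPM in WT-Control, 119, 125 and 137 in WT-Clonidine, 137, 115 and 121 in WT-Guanabenz, and 149, 105 and 166 in KO-Clonidine. Those 4 groups overlapped one another.

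Genes that act on collagens were examined in 8 lists. Of the 22 genes that modify, fold or export chains, all were tested and 0 were called in any comparison by edgeR. Over all genes edgeR called between 0.0% and 2.5% in a comparison. Ppib, a prolyl isomerase that speeds helix folding, had the smallest p over the 6 groups (adjusted p = 0.075). It read 381.1, 380.2 and 396.9 CPM in KO-Clonidine and 356.8, 336.1 and 310.7 CPM in WT-Clonidine. The groups were separate, and the difference was 0.21 (SE 0.06, adjusted p = 0.060). Serpinh1, the collagen chaperone HSP47, read 1395, 1050 and 1363 CPM in KO-Clonidine and 971, 867 and 892 CPM in KO-Control. Each KO-Clonidine library was above each KO-Control library, and the difference was 0.48 (SE 0.10, adjusted p = 0.356). Creb3l1, a transcription factor of secretory cells, differed by -0.40 between KO-Clonidine and WT-Clonidine (SE 0.16, adjusted p = 0.180). Between KO and WT hosts it also differed by -0.49 in the control groups (SE 0.16) and by -0.17 under guanabenz (SE 0.16). Averaged over the treatments the difference was -0.35 (SE 0.09, adjusted p = 0.081). Between KO-Clonidine and WT-Clonidine 10 of the 22 had an unadjusted p under 0.05, where 19.6% of all genes did. In that comparison 16 of 22 were positive with a median of 0.17. For KO-Clonidine against KO-Control the median was 0.13 and for KO-Guanabenz against KO-Control 0.16.

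The lists for cross-linking enzymes (6 genes), fibril-associated proteoglycans (8), collagen receptors (10), degradation (17), basement membrane partners (17) and transforming growth factor beta signalling (16) were tested in full, and propeptide processing in 6 of 8 genes. None held a called gene in any comparison by edgeR, which called between 0.0% and 2.5% of all genes in a comparison. Proteoglycans that coat fibrils had a median of 0.31 in KO-Clonidine and 0.37 in KO-Guanabenz against KO-Control, with 6 and 8 of 8 positive. Bgn, the small proteoglycan biglycan, differed by 0.55 in the latter (SE 0.17, adjusted p = 0.156). Dcn and Lum belong to this list and to the fibroblast markers, so the lists are not independent. Among basement membrane partners, Hspg2, which encodes perlecan, read 856.8, 824.7 and 703.4 CPM in KO-Guanabenz and 618.1, 606.2 and 580.9 CPM in KO-Control. All 3 KO-Guanabenz libraries were above the control, with a difference of 0.40 (SE 0.08, adjusted p = 0.072). Nid1, nidogen, which links laminin to type IV collagen, differed by -0.31 in KO-Clonidine against WT-Clonidine (SE 0.09, adjusted p = 0.080). Among receptors, Ddr1, a collagen-activated kinase, differed from KO-Control by 0.33 in KO-Clonidine (SE 0.10, adjusted p = 0.698) and by 0.034 in KO-Guanabenz. From WT-Control Ddr1 differed by 0.26 in WT-Clonidine and by 0.32 in WT-Guanabenz (SE 0.10, adjusted p = 0.249). Lair1, an inhibitory collagen receptor of leukocytes, differed from KO-Control by 0.27 in KO-Guanabenz (SE 0.09, adjusted p = 0.210) and by -0.0088 in KO-Clonidine. In WT hosts its differences were 0.27 under clonidine (adjusted p = 0.234) and 0.25 under guanabenz (adjusted p = 0.336). Mmp14, a membrane-bound collagenase of the degradation list, read 660.3, 640.4 and 675.5 CPM in WT-Guanabenz and 884.6, 796.9 and 774.5 CPM in WT-Control. The groups were separate, with a difference of -0.31 (SE 0.09, adjusted p = 0.217). Among cross-linking enzymes, Loxl1, a lysyl oxidase, differed by 0.64 in KO-Guanabenz against KO-Control (SE 0.22, adjusted p = 0.198). Adamts14, which cleaves amino-terminal propeptides, differed by -0.20 in the same comparison (SE 0.12, adjusted p = 0.456). Tgfbr1, the type I receptor for the growth factor that drives collagen transcription in fibroblasts, differed by 0.36 in KO-Guanabenz against KO-Control (SE 0.09, adjusted p = 0.099).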

How the data were processed

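RNA was sequenced from 18 tumour samples in 6 groups of 3, assigned from sample titles. The authors deposited estimated counts, whole numbers, for each gene; the submitters' processing notes name Trim Galore 0.6.5, kallisto 0.46.0 and GRCm38. How transcripts were summed to genes and whether strand was used are not given in the sources used here, and kallisto divides shared reads between similar chains. Of 21015 rows, 20994 matched a RefSeq symbol, and the other 21 held at most 0.0216% of a library.

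Genes were kept with filterByExpr (16125), scaled by TMM and fitted in edgeR 4.0.16 under R 4.3.3 with a mean per group, leaving 12 residual and 4.35 prior degrees of freedom and a biological coefficient of variation of 0.145. Tests were two-sided and adjusted within each of 12 comparisons. Levels per kb used the median length of GENCODE M21 transcripts with a RefSeq mRNA accession, found for all 44 collagens. The 95% intervals used the fit's degrees of freedom. In each comparison the 3 collagens with the smallest p are given in full. The leading member of each class and the paired chains are given in every library, except that Col1a2 in KO-Guanabenz is only drawn. From each pathway list 1 to 3 of the genes with the smallest p over the 6 groups are given. Col10a1 and Col11a1 were chosen after their values were seen. The members and lists were chosen with earlier results of these data known. Alternatives were DESeq2 1.42.0, limma-voom (limma 3.58.1) with quality weights, other scalings and filters, a replicate block, a Y-linked term, only the compared groups, and omission or relabelling of libraries.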

Additional observations from a re-analysis of the deposited data

How the results depend on the processing

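The number of collagens called was recomputed 225 times over the 12 comparisons and stayed at 0 in 214. It was 2 for KO-Guanabenz against KO-Control with DESeq2 and 2 with limma-voom. For KO-Clonidine against WT-Clonidine it was 1 with DESeq2, 5 with limma-voom and 0 to 1 on leaving out each library (1 without KO-Clonidine 2, Col16a1). For KO against WT averaged over treatments it was 1, Col6a5 each time, with limma-voom, with the replicate block, with a Y-linked term and without WT-Control 1, and 0 to 1 on leaving out each library. For the 6-group test it was 3 with DESeq2 and 3 with limma-voom. The cause of these changes was not tested. Replicate numbers did not pair the libraries: same-numbered libraries had a mean correlation of deviations of -0.0047 (45 pairs, 11 over 0.1), 6 of 18 libraries correlated best with their own number, and the replicate block changed no other collagen count. Of 591 values of single genes, 574 kept direction and side of the threshold, 12 passed it, 0 reversed and 5, of the scarce Col2a1, Col6a5 and Col6a6, had no adjusted p from DESeq2. Of 199 family medians, 5 moved by more than 0.089 and 7 changed sign, 0 of them under another scaling, which moved the median of all genes by at most 0.087. Levels per kb with the longest transcript moved beyond the spread for 0 of 44 genes. Counts over all genes depended on the tool and the libraries. They ran from 0 to 773 for WT-Clonidine and 0 to 173 for WT-Guanabenz against WT-Control, 0 to 29 for KO-Clonidine and 0 to 443 for KO-Guanabenz against KO-Control, 0 to 17, 1 to 1266 and 0 to 14 for KO against WT under control, clonidine and guanabenz, 0 to 4 between compounds, 0 to 33 and 1 to 13 for the genotype differences of clonidine and guanabenz, 7 to 601 averaged and 6 to 2182 for the 6-group test.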
